A study of Mus musculus with 904 samples.

Results

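The genes described here are 10 receptors for serotonin and acetylcholine, namely Htr1a, Htr1b, Htr2a, Htr2c, Htr4, Htr7, Chrm1, Chrm2, Chrm3 and Chrm4, out of 32285 genes in the count table. They were chosen by name, and their levels were read across cell classes set by marker genes. The library of each nucleus came from a C57Bl/6J mouse given an AAV of the PHP.eB capsid, in which the DLX2.0 enhancer drove a fluorescent reporter bound for the nucleus, and nuclei were sorted by flow cytometry some weeks later. RNA of single nuclei was amplified with SMART-Seq v4, which reads along the whole transcript and carries no molecular identifiers. The series asks where noise in screens of enhancer viruses comes from.

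All 904 nuclei carry the same enhancer, and the 16 constructs differ in the reporter. In 6 constructs an RNA element (BORG, 3xBORG, 3xsmOPT, 3xU7snRNAOPT, U7snRNAOPT or U7snRNAOPT-3'box) follows SYFP2-H2B, a yellow fluorescent protein fused to a histone, and in 6 others the same elements stand before it. The other 4 are SYFP2-10aa-H2Bmod-BC, SYFP2-P2A-3XFLAG-H2B-SIRLOIN, SYFP2-P2A-3XFLAG-H2B and dTomato-H2B. There is no uninjected mouse among the groups, every construct carries the virus, and the sort for the reporter limits which cells were seen. The labels name no animal, so the construct in the title served as the sample, and p-values measure only the spread between constructs, which may be technical. The vector codes in the labels do not follow the titles: a title carries 4 to 5 codes, and a code stands under 3 to 9 titles.

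Serotonin and acetylcholine act on neurons mostly through receptors that couple to G proteins. Htr1a, Htr1b, Chrm2 and Chrm4 couple to Gi/o proteins, which lower cyclic AMP and open GIRK potassium channels. Htr2a, Htr2c, Chrm1 and Chrm3 couple to Gq and phospholipase C, and Htr4 and Htr7 couple to Gs and raise cyclic AMP. In the striatum, cholinergic interneurons and serotonin fibres from the raphe reach projection neurons of the direct and the indirect pathway, which express the dopamine receptors Drd1 and Drd2.

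Of the 904 nuclei, 835 had at least 1000 detected genes and 10000 reads and were kept, with 30023 to 719419 reads each (median 260274). Striatal projection nuclei (Rgs9 at 20 counts per 1000000 reads, CPM, or more and Slc17a7 below 20 CPM) numbered 214, of which 112 had more Drd1 than Drd2 (direct pathway), 72 had more Drd2 (indirect pathway) and 30 had equal values. There were 114 Sst nuclei, 92 Pvalb nuclei, 134 excitatory nuclei with Slc17a7, 35 astrocyte nuclei with Aqp4 and 37 oligodendrocyte nuclei with Mog, while 117 nuclei met no class and 92 met more than 1. Near the Rgs9 threshold, 1 of the 214 striatal projection nuclei lay below 2 times the threshold, and 4 nuclei fell just short of it. The Sst class had more such nuclei, with 9 of 114 below 2 times its threshold of 100 CPM and 14 just short of it, and the other classes had 0 to 3 of either kind. Median reads were 286357 in Aqp4 nuclei and 325977 in Mog nuclei, and 233164 in excitatory nuclei, the lowest class, so the glial classes had the most reads. Median detected genes were 1622 in Aqp4 and 1144 in Mog nuclei, against 2554 in direct-pathway nuclei, the lowest neuronal class, and 3481.5 in excitatory nuclei, the highest. The shares below were not adjusted for this difference in detected genes.

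The labels place every nucleus used here in primary visual cortex, and the transcripts of the striatal class go against that label. The design text of the series names the striatum and a motor area of cortex as further regions that were sorted. Ppp1r1b, which encodes the striatal signalling protein DARPP-32, had a read in 99.1% of direct-pathway and 94.4% of indirect-pathway nuclei. Tac1 had a read in 91.1% of direct-pathway nuclei and 13.9% of indirect-pathway nuclei, and Penk in 34.8% and 97.2% of the same classes. Lhx6, a marker of interneurons from the medial ganglionic eminence, was read in 57% of Sst and 30.4% of Pvalb nuclei. Neurod2, a marker of cortical excitatory neurons, was read in 59.7% of excitatory nuclei and in none of the striatal projection nuclei with unequal Drd1 and Drd2. Slc1a3 was read in 97.1% of Aqp4 nuclei and Mobp in 91.9% of Mog nuclei. Library pool S40317 held none of the striatal projection nuclei and 54 of the 134 excitatory nuclei.

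Promoters of 4 receptor genes that the class comparisons below describe at length (Chrm3, Htr1b, Htr2c and Chrm2) are printed here for orientation, from RefSeq on build GRCm38.p6, with 250 bases before the start site and 50 after it, on the strand of the gene. Capitals mark CCAAT or GGGCGG, searched on both strands and here all found as the reverse complement (ATTGG or CCGCCC). The windows are chr9:81633783-81634082 on the minus strand for Htr1b, chrX:146962263-146962562 on the plus strand for Htr2c, chr6:36387834-36388133 on the plus strand for Chrm2 and chr13:10360754-10361053 on the minus strand for Chrm3.
Htr1b: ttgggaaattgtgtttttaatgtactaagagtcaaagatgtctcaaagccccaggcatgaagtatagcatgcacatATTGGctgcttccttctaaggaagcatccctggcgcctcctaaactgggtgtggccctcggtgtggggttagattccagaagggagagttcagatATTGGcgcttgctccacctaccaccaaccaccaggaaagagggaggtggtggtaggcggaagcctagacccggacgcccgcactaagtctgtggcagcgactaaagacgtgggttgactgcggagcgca
Htr2c: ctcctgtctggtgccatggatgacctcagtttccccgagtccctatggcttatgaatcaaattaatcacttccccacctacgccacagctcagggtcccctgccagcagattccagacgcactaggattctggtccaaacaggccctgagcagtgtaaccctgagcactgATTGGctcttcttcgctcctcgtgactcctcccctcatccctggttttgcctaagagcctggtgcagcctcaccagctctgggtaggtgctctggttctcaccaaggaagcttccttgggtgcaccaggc
Chrm2: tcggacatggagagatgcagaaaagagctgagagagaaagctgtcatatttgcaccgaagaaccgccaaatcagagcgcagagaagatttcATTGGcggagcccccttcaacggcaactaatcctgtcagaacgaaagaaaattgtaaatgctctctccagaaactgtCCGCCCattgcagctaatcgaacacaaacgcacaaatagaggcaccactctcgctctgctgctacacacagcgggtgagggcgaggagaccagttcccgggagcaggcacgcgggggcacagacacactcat
Chrm3: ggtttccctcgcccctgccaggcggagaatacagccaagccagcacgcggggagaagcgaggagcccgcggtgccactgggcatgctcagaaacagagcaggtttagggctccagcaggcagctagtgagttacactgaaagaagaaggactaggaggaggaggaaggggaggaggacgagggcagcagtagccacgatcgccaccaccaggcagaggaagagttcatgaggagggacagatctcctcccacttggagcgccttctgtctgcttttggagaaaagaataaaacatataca
CCAAT began at -174 and -79 from the start site in Htr1b, at -80 in Htr2c and at -159 in Chrm2, and 37.4% of 32851 promoters of this length hold it. GGGCGG, which 35.7% of promoters hold, stood at -82 in Chrm2. Chrm3 held neither, nor TATAAA (13.6% of promoters), CACGTG (7.15%), TGACG (20.8%) or CAGCTG (16.3%). No pattern of levels below was tested against these letters.

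Chrm3, a Gq-coupled muscarinic receptor whose gene spans chr13:9875486-10360847 on GRCm38, was the member read in the most nuclei, 371 of 835. It was nearly absent from direct-pathway nuclei, where 2 of 112 nuclei had a read (1.79%, exact 95% interval 0.217% to 6.30%), against 43 of 72 indirect-pathway nuclei (59.7%, interval 47.5% to 71.1%). Astrocyte nuclei had no read in 35 and oligodendrocyte nuclei a read in 1 of 37, so direct-pathway nuclei stood at the glial share. The 30 striatal nuclei with equal Drd1 and Drd2 lay between, with a read in 9 of the 30.

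The contrast held in each construct. In the 6 constructs with at least 3 nuclei of both classes (SYFP2-10aa-H2Bmod-BC, SYFP2-H2B-3xsmOPT-BC, SYFP2-H2B-U7snRNAOPT-BC, SYFP2-P2A-3XFLAG-H2B, SYFP2-P2A-3XFLAG-H2B-SIRLOIN and dTomato-H2B), Chrm3 had 0, 0, 0, 1.69, 0 and 0 CPM in direct-pathway nuclei, against 126, 30.1, 42.9, 33.6, 54.7 and 66.7 CPM in indirect-pathway nuclei, in that order. Every indirect-pathway value lay above every direct-pathway value. Summed, 12 reads stood against 808 reads, or 0.538 CPM against 55.9 CPM, a ratio of 104 of indirect over direct. The split was present within both library pools that held striatal nuclei: in pool S40325, 2 of 65 direct-pathway nuclei and 32 of 55 indirect-pathway nuclei had a read, and in pool S40327 the counts were 0 of 47 and 11 of 17.

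Fitted over all 8408 genes tested, the log2 fold change of Chrm3 between direct- and indirect-pathway nuclei was -9.26 ± 2.49 (SE), with an adjusted p of 1.0 by edgeR's quasi-likelihood test with Benjamini-Hochberg adjustment (unadjusted p 0.00174), so it was not called. That test called 9 genes, 0.107% of those tested. DESeq2 called Chrm3 at an adjusted p of 1.44e-05 with 1.78% of genes called, and limma on mean log2(CPM + 1) over nuclei called it at 0.0297 with 0.143% of genes called. The call therefore rests on the choice of test, while the direction was the same in every fit. Where constructs hold no read, a fitted fold change depends on the prior count.

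**Figure D1:**
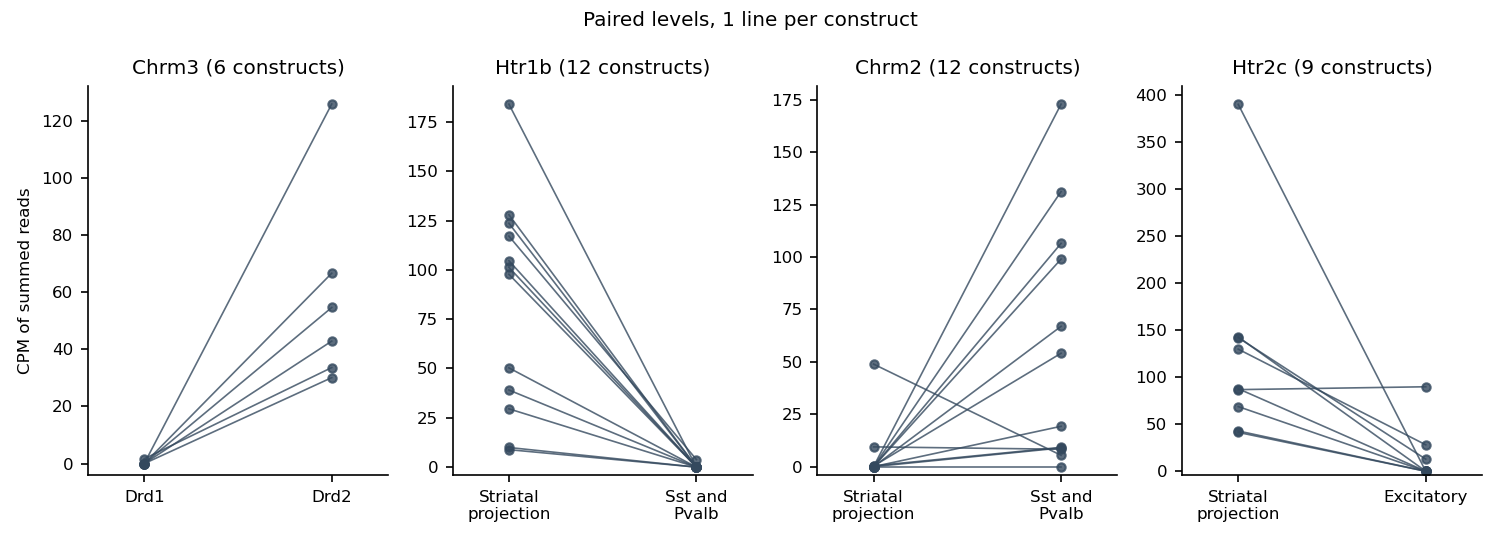
Levels of 4 receptor genes in CPM of summed reads (vertical axis), 1 line per construct joining the 2 classes named on the horizontal axis. Chrm3 lies at 0 to 1.69 CPM in all 6 direct-pathway (Drd1) sums and at 30.1 to 126 CPM in the indirect-pathway (Drd2) sums, Htr1b at 8.86 to 184 CPM in 12 striatal sums and at 0 to 3.85 CPM in the interneuron sums.

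In the other neuronal classes many nuclei had a Chrm3 read. A read was found in 88 of 114 Sst nuclei (77.2%), 44 of 92 Pvalb nuclei (47.8%) and 112 of 134 excitatory nuclei (83.6%). In descending order, over constructs with at least 5 nuclei, its level averaged 128 ± 49.3 CPM in Sst nuclei (SD, n = 12), 109 ± 44.1 CPM in excitatory nuclei (n = 13), 82.6 ± 44.2 CPM in indirect-pathway nuclei (n = 5), 43.8 ± 35.7 CPM in Pvalb nuclei (n = 9) and 0.188 ± 0.564 CPM in direct-pathway nuclei (n = 9). Neighbours in that order overlapped in their ranges except the last pair, 1.78 to 123 CPM in Pvalb nuclei and 0 to 1.69 CPM in direct-pathway nuclei, which did not overlap. Chrm3 was higher in Sst than in Pvalb nuclei in 8 of 8 constructs (132 against 45.9 CPM, summed), with a log2 fold change of 1.96 ± 0.74 and an adjusted p of 0.561 by edgeR's quasi-likelihood test with Benjamini-Hochberg adjustment. That comparison called 34 of 8753 genes, 0.388%, and no member of the receptor set. DESeq2 put Chrm3 at an adjusted p of 0.0213 and limma at 0.0115 there.

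Chrm3 was lower in striatal projection than in interneuron nuclei in 11 of 12 constructs (34.7 against 98.4 CPM, log2 fold change -1.81 ± 0.63, adjusted p 0.0853) and lower than in excitatory nuclei in 7 of 9 (36.3 against 120 CPM, -2.04 ± 0.99, adjusted p 0.451), in both cases short of a call by edgeR's quasi-likelihood test with Benjamini-Hochberg adjustment. With DESeq2 both were called (adjusted p 0.000708 and 0.0315). The striatal sums mix both pathways, which differed in Chrm3 as described above, and neither pathway was fitted alone here. The sum of BORG-SYFP2-H2B-BC held 6 direct-pathway and 0 indirect-pathway nuclei, at 0 CPM. That of 3xsmOPT-SYFP2-H2B-BC held 0 and 6, at 115 CPM. SYFP2-H2B-BORG-BC, with 5 and 2, went the other way, at 179 CPM. The part of this makeup in the differences was not tested. Between interneuron and excitatory nuclei the fitted difference of Chrm3 was -0.19 ± 0.38. The annotated lncRNA genes Gm47405 and Gm26861 lie within Chrm3, the first on the same strand, with 2427 and 258 reads against 13250 for Chrm3, and how reads were divided between overlapping genes is not given in the sources used here.

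Htr1b, a Gi/o-coupled receptor known to sit on axon terminals of striatal projection neurons, was read mainly in striatal projection nuclei. The gene lies at chr9:81628291-81633828 on the minus strand. A read was found in 24 of 112 direct-pathway nuclei (21.4%), 21 of 72 indirect-pathway nuclei (29.2%), 1 of 114 Sst nuclei, 0 of 92 Pvalb nuclei (which allows up to 3.26%), 8 of 134 excitatory nuclei (5.97%) and none of the glial nuclei. In the 12 constructs that held 5 or more nuclei of each side its lowest, median and highest levels were 8.86, 99.5 and 184 CPM in striatal projection nuclei, against 0 CPM in 11 interneuron sums and 3.85 CPM in the other. The ranges did not overlap, and the striatal sum was the higher in 12 of 12 constructs.

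Summed over these constructs, Htr1b had 4442 reads in striatal projection nuclei and 20 reads in interneuron nuclei, all 20 from 1 Sst nucleus. These are 80.3 CPM and 0.484 CPM, a ratio of 166 with a counting interval of 107.3 to 272. Reads without molecular identifiers are not independent molecules, so that interval does not bound the ratio of the classes. By edgeR's quasi-likelihood test with Benjamini-Hochberg adjustment Htr1b was called, at a log2 fold change of 10.46 ± 1.17 (SE) (adjusted p 4.38e-06). That comparison called 884 of 9624 genes, 9.19%, with 4.51% higher and 4.68% lower in striatal projection nuclei. Of the 10 members 6 passed the filter on low counts there, and 1 was called higher and 1 lower. In pool S40325 a read was found in 38 of 141 striatal projection nuclei, 0 of 46 Sst nuclei and 0 of 40 Pvalb nuclei, and in pool S40327 in 14 of 73, 1 of 61 and 0 of 36. Without pool S40327, 4 constructs remained and the adjusted p was 0.0955, with a log2 fold change of 12.04.

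Against excitatory nuclei Htr1b had 75.02 CPM in striatal projection nuclei and 9.57 CPM in excitatory nuclei and was higher in 8 of 9 constructs. The exception was SYFP2-H2B-BORG-BC, with 9.96 CPM in striatal and 91.1 CPM in excitatory nuclei. The log2 fold change was 6.01 ± 1.80 with an adjusted p of 0.0868 by edgeR's quasi-likelihood test with Benjamini-Hochberg adjustment, and without that construct it was 6.96 with an adjusted p of 0.0325. Between the pathways, Htr1b averaged 45.3 ± 28.6 CPM in direct-pathway nuclei (SD, n = 9 constructs) and 127 ± 60.2 CPM in indirect-pathway nuclei (n = 5), and the ranges of 0 to 105 and 36.96 to 206 CPM overlapped. The paired fit over 6 constructs (summed levels 46.9 and 108 CPM) gave -1.20 ± 1.63 with an adjusted p of 1.0. The antisense gene D430036J16Rik overlaps Htr1b and had 1367 reads against 5322, and strand use in counting is not given in the sources used here.

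Htr2c, a Gq-coupled receptor, lies at chrX:146962513-147197277 on the plus strand and was shared by both striatal pathways. It had a read in 36 of 112 direct-pathway nuclei (32.1%) and 31 of 72 indirect-pathway nuclei (43.1%), in 15 of 114 Sst nuclei (13.2%), 11 of 92 Pvalb nuclei (11.96%) and 6 of 134 excitatory nuclei (4.48%), and in none of the glial nuclei. Its level averaged 101 ± 116 CPM in direct-pathway nuclei (SD, n = 9), 140 ± 51.2 CPM in indirect-pathway nuclei (n = 5), 32.7 ± 50.4 CPM in Sst nuclei (n = 12), 23.2 ± 28.9 CPM in Pvalb nuclei (n = 9) and 17.4 ± 30.7 CPM in excitatory nuclei (n = 13). The 2 striatal pathways overlapped in range, as did the 3 other neuronal classes.

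Across the 9 constructs that held 5 or more nuclei of each side, Htr2c had 41.3, 87.8 and 390 CPM as lowest, median and highest values in striatal projection nuclei, against 0 CPM in 6 excitatory sums and 12.9, 28.1 and 89.8 CPM in the other 3. It was higher in striatal nuclei in 8 of 9, the exception being dTomato-H2B with 86.8 CPM in striatal and 89.8 CPM in excitatory nuclei. Summed, the levels were 112 CPM and 18.2 CPM. The log2 fold change was 7.16 ± 1.68 with an adjusted p of 0.0201 by edgeR's quasi-likelihood test with Benjamini-Hochberg adjustment, and the comparison called 296 of 9041 genes, 3.27%, with 1.45% higher in striatal projection nuclei. Of the 10 members 5 passed the filter, and Htr2c was the only one called.

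Leaving out any 1 of 4 constructs lost the call, with the fold change still positive. Leaving out BORG-SYFP2-H2B-BC gave a log2 fold change of 6.47 with an adjusted p of 0.0710, SYFP2-H2B-BORG-BC 6.67 with 0.0512, SYFP2-H2B-U7snRNAOPT-3'box-BC 6.57 with 0.0578 and U7snRNAOPT-SYFP2-H2B-BC 6.44 with 0.0546, and the other 5 fits kept the adjusted p below 0.05. Without the construct block the adjusted p was 0.238 (log2 fold change 3.03), with sums per vector code 0.0915, and without pool S40317, 0.374. Within pools the levels were 100 CPM in striatal projection nuclei against 31.3 CPM in excitatory nuclei in pool S40325, and 131 against 16.9 CPM in pool S40327.

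Against interneuron nuclei Htr2c was higher in striatal projection nuclei in 10 of 12 constructs, 106 against 30.8 CPM, with a log2 fold change of 2.63 ± 0.91 and an adjusted p of 0.0799 by edgeR's quasi-likelihood test with Benjamini-Hochberg adjustment. Leaving out 3xU7snRNAOPT-SYFP2-H2B-BC or SYFP2-H2B-3xsmOPT-BC put it below 0.05, at 0.0439 and 0.0461. Direct against indirect pathway (77.6 against 108 CPM, summed) gave -1.60 with an adjusted p of 1.0, lower in 5 of 6 constructs.

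Chrm2, the Gi/o-coupled muscarinic receptor of many interneurons and of cholinergic cells, at chr6:36388084-36528414 on the plus strand, ran the other way. It had a read in 0 of 112 direct-pathway nuclei and 4 of 72 indirect-pathway nuclei, where 94.1% of the reads came from 1 nucleus, and in 27 of 114 Sst nuclei (23.7%), 13 of 92 Pvalb nuclei (14.1%) and 21 of 134 excitatory nuclei (15.7%). In glia it was read in 2 of 35 Aqp4 and 1 of 37 Mog nuclei. The exact interval of the Aqp4 share was 0.700% to 19.2%, which covered the Pvalb and excitatory shares and not the Sst share. That interval takes nuclei as independent, and the Sst share has an interval of its own. The shares of Sst and Aqp4 nuclei were not tested over constructs.

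In the 12 constructs shared by striatal projection and interneuron nuclei, Chrm2 had 0 CPM in 8 striatal sums and 0.269, 0.369, 9.42 and 48.9 CPM in the other 4, against 0 to 173 CPM in interneuron sums. The interneuron sum was the higher in 9 constructs, and the ranges overlapped. Summed levels were 4.70 CPM in striatal projection nuclei and 53.2 CPM in interneuron nuclei, a ratio of 0.0883. The log2 fold change was -7.886 ± 2.003 with an adjusted p of 0.0146 by edgeR's quasi-likelihood test with Benjamini-Hochberg adjustment, and leaving out any 1 construct kept it below 0.05. Without the construct block it was -3.33 with an adjusted p of 0.126, and without pool S40327 -8.61 with 0.294.

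In the 9 constructs shared with excitatory nuclei 1 read stood in striatal projection nuclei and 536 in excitatory nuclei, and Chrm2 did not pass the filter. SYFP2-H2B-U7snRNAOPT-BC and SYFP2-P2A-3XFLAG-H2B-SIRLOIN, with 48.9 and 9.42 CPM in striatal projection nuclei, held fewer than 5 excitatory nuclei and were not among them. Between interneuron and excitatory nuclei it had 75.8 against 29.4 CPM and was higher in 10 of 13 constructs, with a log2 fold change of 3.15 ± 1.07 and an adjusted p of 0.111 by edgeR's quasi-likelihood test with Benjamini-Hochberg adjustment, in a comparison that called 468 of 9683 genes, 4.83%, and 0 members. DESeq2 put it at an adjusted p of 0.000302. The lncRNA gene 9330158H04Rik overlaps Chrm2 on the other strand and had 3375 reads against 6380.

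Within the Sst class Chrm2 was unevenly spread. Nuclei with Nos1 and Chodl at 20 CPM or more each numbered 25 from 9 constructs. Of these, 16 (64%, exact interval 42.5% to 82.03%) had a Chrm2 read, against 11 of the other 89 Sst nuclei (12.4%, 6.33% to 21.04%). Htr2c was read in 9 of the 25 (36%) and 6 of the 89 (6.74%), while Chrm3 was read in 18 of 25 (72%) and 70 of 89 (78.7%). Summed levels of Chrm2 were 186 CPM in the 25 nuclei and 51.2 CPM in the 89. The split was not tested over constructs, and the intervals take nuclei as independent and cover counting error only. Over the whole Sst class Chrm2 was read in 1 of 7 nuclei in pool S40317, 16 of 46 in S40325 and 10 of 61 in S40327. Whether these Sst nuclei came from cortex or striatum, and the part of the pool in the shares, was not tested.

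**Figure D2:**
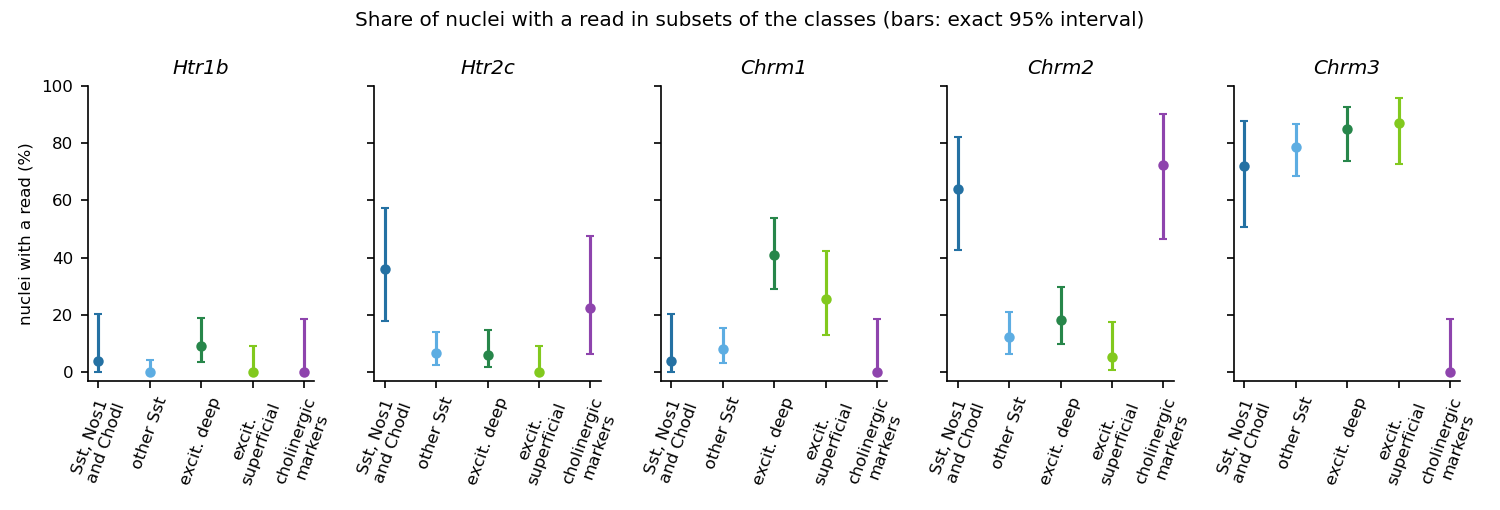
Percent of nuclei with at least 1 read (vertical axis) of 5 receptor genes in Sst nuclei with both Nos1 and Chodl, other Sst nuclei, excitatory nuclei with Cux2 below or above the deep-layer markers, and unclassed nuclei with at least 2 of 3 cholinergic markers. Points are shares and bars exact 95% intervals, and Chrm2 stands at 64% in the first subset and 12.4% in the second.

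Chrm1, a Gq-coupled muscarinic receptor at chr19:8663789-8683587, was found in both striatal and excitatory nuclei. It had a read in 27 of 112 direct-pathway nuclei (24.1%), 11 of 72 indirect-pathway nuclei (15.3%), 8 of 114 Sst nuclei (7.02%), 9 of 92 Pvalb nuclei (9.78%), 46 of 134 excitatory nuclei (34.3%) and 1 of 35 Aqp4 nuclei. Among excitatory nuclei the share moved with the library pool, being 34 of 54 in S40317, 10 of 47 in S40325 and 2 of 33 in S40327, and the part of the pool in the excitatory values was not tested. The level of Chrm1 averaged 80.9 ± 38.2 CPM in direct-pathway nuclei (SD, n = 9), 53.5 ± 47.9 CPM in indirect-pathway nuclei (n = 5), 25.5 ± 33.2 CPM in Sst nuclei (n = 12), 10.4 ± 15.03 CPM in Pvalb nuclei (n = 9) and 72.7 ± 79.1 CPM in excitatory nuclei (n = 13), and all these ranges overlapped.

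Chrm1 was higher in striatal projection than in interneuron nuclei in 11 of 12 constructs, with 72.2 against 21.9 CPM, a log2 fold change of 5.63 ± 1.87 and an adjusted p of 0.0678 by edgeR's quasi-likelihood test with Benjamini-Hochberg adjustment. Leaving out 3xsmOPT-SYFP2-H2B-BC gave 0.0184. It was lower in interneuron than in excitatory nuclei in 9 of 13 constructs (18.5 against 73.1 CPM, -4.73 ± 1.75, adjusted p 0.154 by the same test), and without pool S40317 the log2 fold change was -0.61. Striatal projection and excitatory nuclei had 71.4 and 68.8 CPM, and the sign of the fitted difference (0.14) turned under several alternatives. DESeq2 called Chrm1 in both comparisons with interneuron nuclei, at adjusted p of 1.43e-07 and 2.77e-05.

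Htr2a, a Gq-coupled serotonin receptor at chr14:74640840-74709494, was read most often in Pvalb nuclei. The shares were 6 of 112 direct-pathway nuclei (5.36%), 3 of 72 indirect-pathway nuclei (4.17%), 9 of 114 Sst nuclei (7.89%), 19 of 92 Pvalb nuclei (20.7%), 20 of 134 excitatory nuclei (14.9%), 0 of 35 Aqp4 nuclei and 1 of 37 Mog nuclei. In pool S40317 a read was found in 4 of 7 Sst, 7 of 16 Pvalb and 5 of 54 excitatory nuclei. The counts in the same order were 2 of 46, 6 of 40 and 7 of 47 in S40325, and 3 of 61, 6 of 36 and 8 of 33 in S40327. The part of the pool in these shares was not tested. In 8 constructs Htr2a had 0, 21.8, 80.9, 0, 0, 22.5, 10.8 and 0 CPM in Sst nuclei, against 46.9, 170, 11.4, 27.7, 23.1, 38.3, 90.8 and 33.5 CPM in Pvalb nuclei of the same constructs. The Sst value was the lower in 7 of them, and SYFP2-H2B-3xBORG-BC was the exception. Summed levels were 16.8 CPM in Sst nuclei and 47.3 CPM in Pvalb nuclei, a ratio of 0.355. The log2 fold change was -4.52 ± 2.03 with an adjusted p of 0.780 by edgeR's quasi-likelihood test with Benjamini-Hochberg adjustment, and DESeq2 gave an adjusted p of 0.00254.

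**Figure D3:**
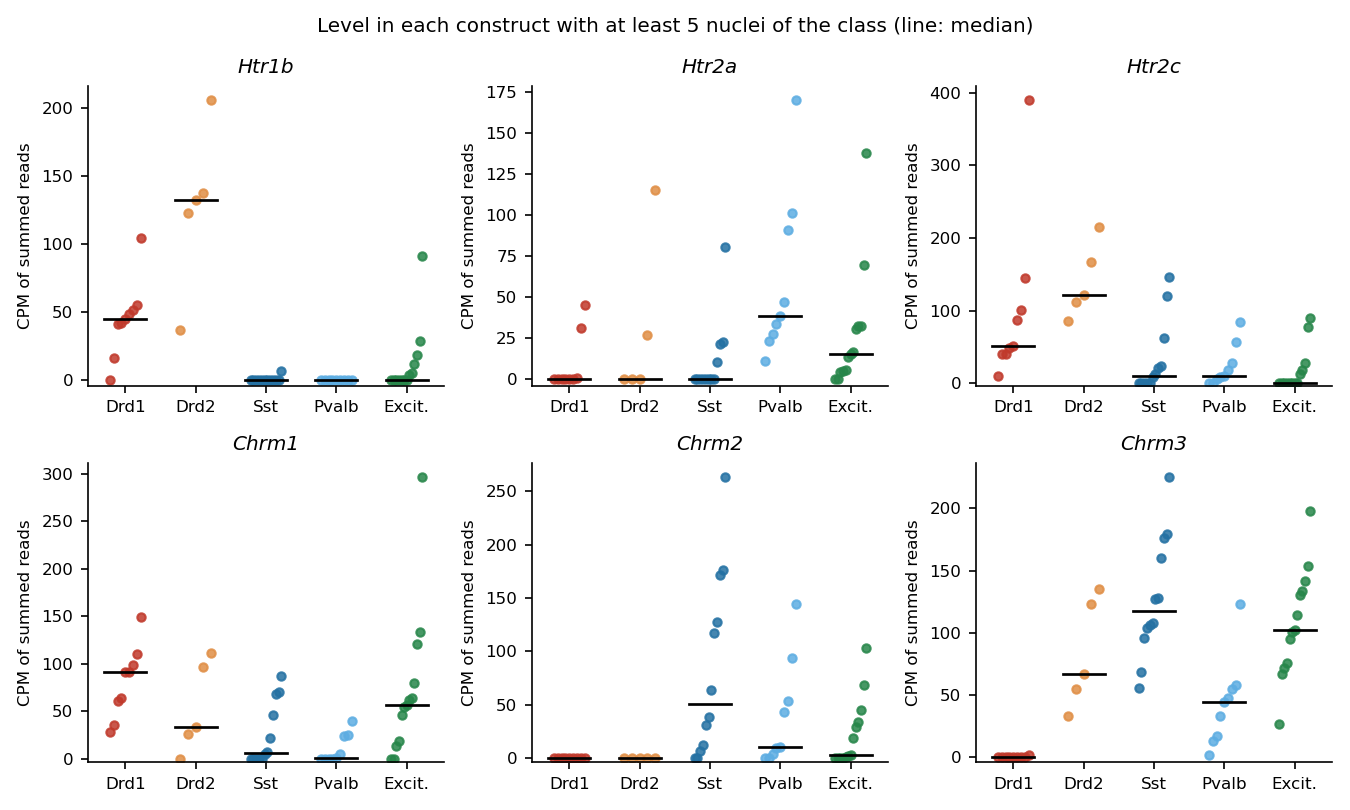
Level of 6 receptor genes in CPM of summed reads (vertical axis) by neuronal class (horizontal axis). Each point is 1 construct with at least 5 nuclei of the class and the black line is the median, and Chrm3 lies at 0 to 1.69 CPM in direct-pathway (Drd1) sums and at 33.6 to 135 CPM in indirect-pathway (Drd2) sums.

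The other 4 members were sparse. Htr1a, the Gi/o-coupled receptor that also serves as the raphe autoreceptor (chr13:105443639-105448122), had a read in 0 of 214 striatal projection nuclei, which allows up to 1.40%, and in 9 of 114 Sst nuclei (7.89%), 1 of 92 Pvalb nuclei and 9 of 134 excitatory nuclei (6.72%), where 70.5% of its reads came from 1 nucleus. With the striatal side set to 3 reads over the group, its summed level was 207-fold below that of interneuron nuclei and 248-fold below that of excitatory nuclei. Few nuclei carried these reads, and reads without molecular identifiers are not independent molecules, so these ratios are no lower bounds for the class. By share of nuclei, the striatal limit of 1.40% stood against 7.89% of Sst, 1 of 92 Pvalb and 6.72% of excitatory nuclei. Htr7 (chr19:35958734-36057507) had a read in 0 of 112 direct-pathway nuclei, 1 of 72 indirect-pathway nuclei, 3 of 114 Sst nuclei, 4 of 92 Pvalb nuclei and 5 of 134 excitatory nuclei. Htr4, on chromosome 18, had a read in 2 direct-pathway, 4 indirect-pathway, 1 Sst, 0 Pvalb and 5 excitatory nuclei.

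Chrm4, a Gi/o-coupled muscarinic receptor known from direct-pathway striatal neurons, had a read in 4 of 112 direct-pathway nuclei (3.57%), 0 of 72 indirect-pathway nuclei, 0 of 114 Sst nuclei, 2 of 92 Pvalb nuclei and 1 of 134 excitatory nuclei. Its summed level was 1.93 CPM in direct-pathway nuclei. The annotated gene in GENCODE M21 spans 1440 bases (chr2:91927249-91928688), and the RefSeq start site lies 5060 bases upstream of it. Chrm4 did not pass the filter on low counts in the class comparisons and was not tested there.

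**Figure D4:**
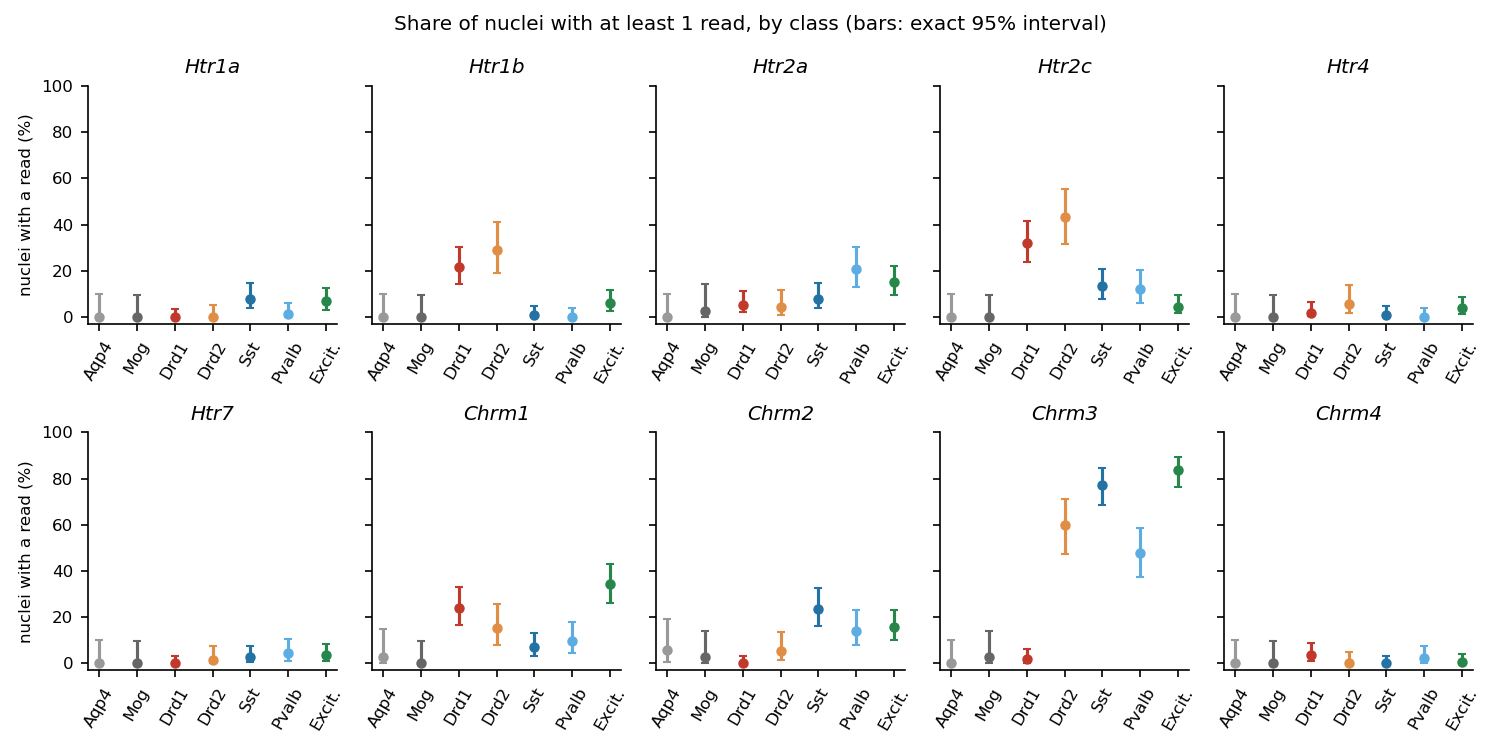
Percent of nuclei with at least 1 read (vertical axis) of each of the 10 receptor genes in 7 classes (horizontal axis), as points with exact 95% intervals. Chrm3 reaches 83.6% in excitatory nuclei and 1.79% in direct-pathway (Drd1) nuclei, Htr1b and Htr2c are highest in the 2 striatal classes, and Htr4, Htr7 and Chrm4 stay at 5.56% or below in all 7.

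With every kept nucleus thinned to 30000 reads, which left out none, the order of the classes was unchanged for Chrm3, Htr1b and Htr2c. Chrm3 was then read in 1.23% of direct-pathway, 51.8% of indirect-pathway, 69.9% of Sst, 34.9% of Pvalb and 75.8% of excitatory nuclei. Thinned shares of Htr1b were 17.1% of direct-pathway, 26.9% of indirect-pathway, 0.817% of Sst, 0% of Pvalb and 5.26% of excitatory nuclei.

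Glial nuclei were taken as the background for all members, though their median of detected genes was lower than in every neuronal class. Astrocyte nuclei had on average 0.0857 members with a read per nucleus and oligodendrocyte nuclei 0.0811, against 0.902 in direct-pathway, 1.64 in indirect-pathway, 1.41 in Sst, 1.12 in Pvalb and 1.74 in excitatory nuclei. In glial fits, of constructs with at least 3 nuclei, most genes were lower in glia: 63.3% of 8914 genes were called lower in astrocyte than in neuronal nuclei, with a median log2 fold change of -6.63, and 50.7% of 9013 genes in oligodendrocyte nuclei, with a median of -7.10. With no construct block the medians were -1.39 and -1.44, and with limma -1.15 and -1.34, in the same order. The 3 members tested in each (Htr2c, Chrm1 and Chrm3) were called lower, which is near what most genes did. In the constructs fitted, with the glial side set to 3 reads over the group, the summed level of Chrm3 was 254-fold lower in astrocyte nuclei and 318-fold lower in oligodendrocyte nuclei. The Mog nucleus with a Chrm3 read lay outside these constructs, and the floor covers counting error only, so these ratios are no lower bounds for the classes.

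Nuclei often carried reads of more than 1 receptor. At least 2 members were read in 24.1% of direct-pathway and 51.4% of indirect-pathway nuclei and in 51.5% of excitatory nuclei, and none in 42.9%, 5.56% and 4.48% of them. In indirect-pathway nuclei 15 had both Htr2c and Chrm3, which is 48.4% of the 31 with Htr2c and 34.9% of the 43 with Chrm3. Over the class the shares were 59.7% for Chrm3 and 43.1% for Htr2c, each above its share among nuclei with the other. In excitatory nuclei 37 had both Chrm1 and Chrm3, 80.4% of the 46 with Chrm1 and 33.04% of the 112 with Chrm3, so the share of Chrm3 among Chrm1 nuclei was close to its share in the class.

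**Figure D5:**
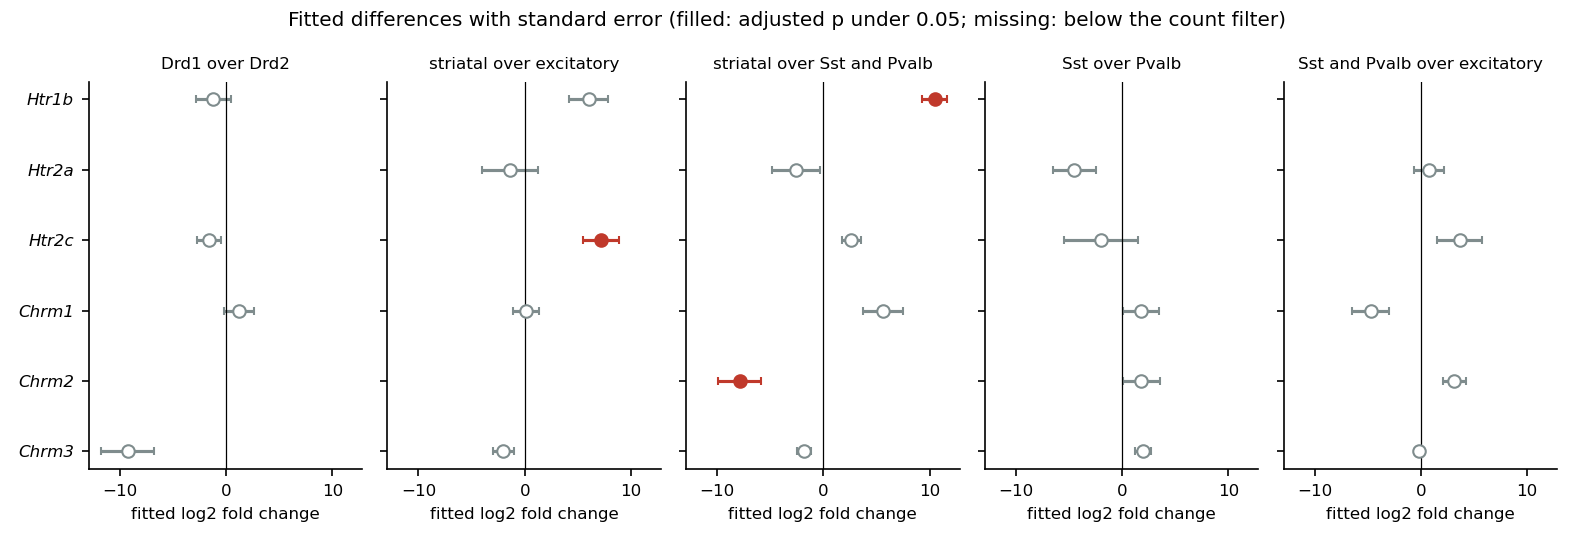
Fitted log2 fold changes (horizontal axis) with standard errors for 6 receptor genes (vertical axis) in 5 comparisons of neuronal classes, the class named first being the numerator. Filled points passed an adjusted p of 0.05 by edgeR, which are Htr2c in striatal over excitatory nuclei and Htr1b and Chrm2 in striatal over interneuron nuclei.

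The position of the element in the reporter left no called difference in the receptors. Of 13620 genes in 6 pairs of constructs, edgeR's quasi-likelihood test called 0 (0.00%), with 302 genes at an unadjusted p below 0.05, limma called 0 and DESeq2 called 83 (0.609%), none of them among the members. Htr2c was lower with the element after SYFP2-H2B in 6 of 6 pairs, with 18.4 CPM against 46.8 CPM with the element before it, a log2 fold change of -1.44 ± 0.71 and an adjusted p of 1.0 by edgeR's quasi-likelihood test with Benjamini-Hochberg adjustment. The sums with the element after held 44 striatal projection, 59 interneuron, 52 excitatory and 39 glial nuclei, against 36, 80, 46 and 25 with the element before, and the part of this makeup in the values was not tested.

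Genes of the signalling pathways downstream of these receptors were counted in the same fits. Of the Gs and cyclic AMP list, 14 of 17 genes were tested in striatal projection against excitatory nuclei, and 6 rose and 2 fell, where 3.27% of all genes were called and 1.45% were higher, with a median log2 fold change of 1.57 against -0.26 over all genes. By edgeR's quasi-likelihood test with Benjamini-Hochberg adjustment Pde10a, Pde1b and Pde7b, phosphodiesterases of striatal neurons, rose by 3.17, 3.08 and 2.76 on the log2 scale. Against interneuron nuclei 6 of the 16 tested rose and 3 fell, where 4.51% of all genes were called higher and 4.68% lower, with a median of 1.68 against -0.28. Adcy5, the main striatal adenylyl cyclase, rose by 4.69 and Pde10a by 3.67, while Adcy8 fell by 10.32, with summed levels of 2.53 CPM in striatal projection nuclei and 86.4 CPM in interneuron nuclei. Adcy5 and Pde10a are known to be high in striatal neurons, and Ppp1r1b, Pde10a and Adcy5 were listed as markers to check the striatal class. All of these were among the 6 that rose in each comparison, so the counts and medians of this list are partly a restatement of the class.

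In the same comparisons, which called 3.27% and 9.19% of all genes, the other lists gave these counts. Of the Gq list, 1 rose (Itpr1, the inositol trisphosphate receptor, by 1.25) and 1 fell of 11 tested against excitatory nuclei, where the phospholipase C gene Plcb4 fell by 8.88 (13.02 CPM in striatal projection nuclei and 118 CPM in excitatory nuclei, summed). Against interneuron nuclei 4 of 11 rose, among them Itpr1 by 1.70 and Prkcb by 1.63, and Plcb4 fell by 7.11. Of the 12 genes of the Gi/o and GIRK list 1 rose (Rgs4, by 1.13) and 1 fell against excitatory nuclei, where Kcnj6, a GIRK subunit, fell by 9.47 (0.926 CPM in striatal projection nuclei and 82.5 CPM in excitatory nuclei, summed). Against interneuron nuclei 3 rose (Rgs4, Gnb5 and Rgs8) and Kcnj6 fell by 7.01. In Sst against Pvalb nuclei Itpr1 fell by 2.58 and no other listed gene was called.

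Of the other acetylcholine genes Ache, which encodes acetylcholinesterase, fell by 3.03 in striatal projection against interneuron nuclei and rose by 4.14 in interneuron against excitatory nuclei, with 455 CPM in Sst nuclei and 117 CPM in Pvalb nuclei. In interneuron against excitatory nuclei the genes called lower were Prkcb, Kcnq5, Rgs4, Pde4d and Adcy9, with log2 fold changes of -1.53, -3.09, -3.17, -2.28 and -5.80. Of the 8 genes on the list of other serotonin receptors, only 1 or 2 passed the low-count filter in each comparison of neuronal classes, and none was called. The others on the list were not tested there. Of all 8, Htr1f, a Gi/o-coupled receptor, was the most often read, in 35.8% of excitatory nuclei and 23.2% of direct-pathway nuclei. No listed gene was called between the striatal pathways or by element position.

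Across 53 sums of a class in a construct, the genes whose log2(CPM + 10) followed the members most closely were read off as a description, since the sums share libraries and classes. Htr1b was followed by AC128672.1 (Pearson's r 0.85) and Rgs9 (0.83), the gene that set the striatal class. Htr2c was followed by Gm27243 (0.76) and Ric8b (0.70), Chrm2 by Cygb (0.77) and Tubb2b (0.76), Chrm3 by Miat (0.72) and Chga (0.69), and Chrm1 by Muc3a (0.70) and Gm10115 (0.65). For Htr2a the leading genes were Hapln4 (0.60) and Man1c1 (0.59), for Htr1a Gmppb (0.60) and Pcdhac2 (0.58), and for Htr7 Gm15651 (0.61) and Accs (0.56). Htr4 and Chrm4 stayed below the level of 5 CPM required.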

How the data were processed

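RNA of sorted mouse brain nuclei was amplified with SMART-Seq v4 and tagged with Nextera XT (per the labels). The authors deposited read counts for 32285 genes, unscaled, in a table with 2501 columns. The submitters' processing notes name STAR 2.7.2a and the mm10 build. How reads were counted, on which annotation and strand, is not given in the sources used here. Of the columns, 904 carry the library name of a sample and were used, and 1597 were not. Gene IDs were matched to GENCODE M21 (32235 matched). Nuclei were kept with at least 1000 genes and 10000 reads, and no doublet caller was run, since 1 nucleus went into each library, while nuclei meeting more than 1 class were left out.

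Reads were summed per construct and class where a construct had at least 5 nuclei on both sides, and a fit needed 4 such constructs. The direct against indirect pathway, astrocyte and oligodendrocyte comparisons had 3, 2 and 3, so a minimum of 3 nuclei was used there, with 6, 8 and 6 constructs. After filterByExpr and TMM scaling, edgeR 4.0.16 (R 4.3.3) gave quasi-likelihood tests in which the construct, or the element for its position, was a block. P-values were adjusted by Benjamini-Hochberg over all genes, with a threshold of 0.05. DESeq2 1.42.0 and limma 3.58.1 were alternatives, beside other scaling, no filter, no block, sums per vector code, stricter nuclei and thresholds, and leaving out each construct and each pool. The fits were also run on counts simulated with the same dispersion for every gene. Such counts do not copy sums in which few nuclei hold most reads, so no error rate is drawn from them. Descriptions used Python 3.11.15. CPM are reads per 1000000 reads of the sum. A count of 0 was given the limit of 3 nuclei or reads of the total. Intervals and floors cover counting error only, since PCR reads without molecular identifiers are not independent molecules, and shares use exact Clopper-Pearson intervals at 95%. Promoters came from RefSeq for 8 of the 10 members.

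The named genes were the 10 members, the called members of each list (up to 3 with the smallest p, more where a count is spelled out), and the 2 genes most alike to each member. The members and the lists were chosen with earlier results of these data known, so no pattern here is independent evidence of its direction.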

Additional observations from a re-analysis of the deposited data

Results flagged for a closer look

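In 12 groups of 4 to 10 construct levels examined, 2 held a value far from the others. The rule flags about 1 in 20 groups by chance where values are normally spread. Levels here are sparse sums of few nuclei, so the rate by chance is not known. Htr2c stood at 390 CPM in the direct-pathway nuclei of BORG-SYFP2-H2B-BC, with a median of 51.4 CPM over 9 constructs. Chrm3 stood at 123 CPM in the Pvalb nuclei of 3xsmOPT-SYFP2-H2B-BC, with a median of 44.9 CPM over 9 constructs.

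Among nuclei that met no class, 18 nuclei from 9 constructs had reads of at least 2 of the 3 cholinergic markers Chat, Slc18a3 and Slc5a7, a subset looked at after values were seen. In them Chrm2 was read in 72.2% (exact interval 46.5% to 90.3%) and Htr2c in 22.2% (6.41% to 47.6%), and the other 8 members in none. Chrm2 was read in 5.71% of Aqp4 and 1 of 37 Mog nuclei and Htr2c in none of either. Chrm2 had a summed level of 98.5 CPM in the 18 nuclei. The difference was not tested over constructs. Of all 27 kept nuclei with reads of at least 2 of these markers, in a class or not, Chrm2 was read in 20 and Htr2c in 6. Chrm3 was read in 4 of the 27, Htr1b in 3, Htr2a in 2, and Htr4, Htr7 and Chrm1 in 1 each.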

How the results depend on the processing

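The number of genes called depended on the test and on the library pools. Direct against indirect pathway called 9 genes, against 19 with no low-count filter, 150 with DESeq2, 5 in nuclei with at least 2000 genes, 2 without pool S40327 and 4 to 7 without 1 construct. Striatal projection against excitatory nuclei called 296, against 548 with no filter, 1303 with DESeq2, 1746 with limma, 67 without pool S40317, 57 without S40325 and 209 to 274 without 1 construct. Striatal projection against interneuron nuclei called 884, against 1401, 2580 and 3111 in the same order, 203 without S40325, 115 without S40327 and 789 to 859 without 1 construct. Sst against Pvalb nuclei called 34, against 150, 532 and 300, 71 with at least 3 nuclei per sum, 9 without S40317 and 14 to 28 without 1 construct. Interneuron against excitatory nuclei called 468, against 936, 1671 and 1671, 154 without S40317, 210 without S40325, 66 without S40327 and 384 to 476 without 1 construct. Astrocyte nuclei gave 5800, against 1942 with no construct block, 2943 without S40317 and 5133 to 5470 without 1 construct. Oligodendrocyte nuclei gave 4688, against 7447 with DESeq2, 2334 with no block, 2642 without S40317 and 3577 to 4513 without 1 construct. The element position gave 0, 83 with DESeq2 and 0 to 0 without 1 element.

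Of member fold changes under settings other than leaving out 1 construct, 345 kept direction and side of the threshold, 27 became called, 7 lost the call and 13 turned. Those that turned were Htr1b between pathways (0.35 without S40327), Chrm1 in striatal against excitatory nuclei (-0.24 with no block, -0.61 with limma, -0.46 without S40325, and -0.42 to 0.71 without 1 construct), Htr2c in Sst against Pvalb nuclei (1.66 per vector code, 0.81 at 3 nuclei), Htr2a in interneuron against excitatory nuclei (-0.13 with doubled thresholds, -2.89 without S40317) and Chrm3 there (0.11 without S40325). By element position Htr1b turned (0.20 at 2000 genes, and -0.74 to 0.60 without 1 element), as did Chrm2 (-0.23 without S40317, -1.71 without S40327, and -0.066 to 0.81 without 1 element) and Chrm3 (0.41 without S40317, and -0.38 to 0.19 without 1 element). None of these was called, and the cause was not tested. Leaving out 1 construct kept 315 fold changes, and 4 became called, 4 lost the call and 9 turned.

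By replicate number no paired analysis was possible because the numbers in the titles only count nuclei within a construct, while the classes were paired by construct in every class fit but that with no block. Members that did not pass the low-count filter have no test in that comparison.

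Fewer than 4 constructs, so no value, remained without pool S40325 between the pathways and between Sst and Pvalb nuclei, without S40327 in those of Sst against Pvalb, striatal against excitatory and both glial comparisons, and in nuclei with at least 2000 genes in both glial comparisons. Class thresholds and sums per vector code do not bear on the element position, and 3 nuclei per sum was already the setting between the pathways and for glia.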

Other observations

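Excitatory nuclei were split by whether Cux2, an upper-layer gene, was above or below the summed CPM of the deep-layer genes Fezf2, Foxp2 and Tle4, a split chosen after values were seen. Both sides were equal in 29 of the 134 nuclei, where Chrm2 was read in 7 (24.1%). Of 66 deep nuclei Chrm2 was read in 12 (18.2%, exact interval 9.76% to 29.6%), against 2 of 39 superficial nuclei (5.13%, 0.627% to 17.3%). Chrm1 was read in 27 deep and 10 superficial nuclei, and Chrm3 in 56 and 34. Htr1b was read in 6 deep and 0 superficial nuclei, Htr2c in 4 and 0, and Htr7 in 0 and 3. All these pairs of intervals overlap, and no test over constructs was made.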
